A study of Homo sapiens with 12 samples.

Results

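The transcripts of 10 genes that mark the lung epithelial lineage were followed in 3 lung adenocarcinoma cell lines: the lineage factors NKX2-1, FOXA1, FOXA2 and GATA6, the surfactant protein genes SFTPA1, SFTPB, SFTPC and SFTPD, and the secretory genes NAPSA and SCGB1A1. They were found by name among the noncontrol probes of the arrays, where 13 of 50599 probes belonged to these 10 of 36337 gene names. The arrays held 12 samples, 1 for each of 4 transfections in each line. A549 and PC14 are lung adenocarcinoma lines, and PC14CDDP is a cisplatin-resistant line derived from PC14. Each line was transfected at 25 nM with premiR-197, a synthetic precursor of miR-197, with its control AllStar-NC, with LNA-miR-197, a locked nucleic acid inhibitor of miR-197, or with its control LNA-miR-NC. All samples were therefore transfected with an oligonucleotide and DharmaFECT 1, and no untransfected culture was among them. Because no transfection was repeated within a line, the 3 lines served as the replicates of a transfection, and the 4 arrays of a line, which received different oligonucleotides, served as the replicates of that line. Nothing in the labels states that the arrays of a line were separately grown cultures, and each line stands for 1 tumor only. PC14 and PC14CDDP stand for the same tumor, so the replicates of a transfection are not fully independent. The p-values for lines rest on 1 spread for each gene, pooled over the arrays of all 3 lines after transfection differences were removed. They do not measure the spread within a single line and do not speak for other lines. All A549 arrays lay on slide 1 and all PC14 and PC14CDDP arrays on slide 2, so that slide and line cannot be told apart where A549 is compared. PC14 and PC14CDDP shared slide 2 in different rows. Each transfection kept the same slide column in all lines, and column and transfection cannot be told apart either.

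The airway and alveolar epithelium arises from foregut endoderm under a small set of transcription factors. NKX2-1, also called thyroid transcription factor, is a homeodomain protein that marks the lung bud and, in the adult, drives surfactant genes in alveolar type II cells. FOXA1 and FOXA2 are forkhead pioneer factors that open chromatin in endoderm, and GATA6 is a zinc finger factor that acts with NKX2-1 in the same cells. Surfactant proteins A and D are collectins that bind microbes, whereas proteins B and C are small hydrophobic proteins that let surfactant spread at the air surface. NAPSA encodes napsin A, an aspartic protease that trims the surfactant protein B precursor and is stained for in the diagnosis of lung adenocarcinoma, and SCGB1A1 encodes the secretoglobin of club cells in the airways.

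The FOXA1 promoter is shown because one of the 2 FOXA1 probes lies in it. Capitals mark the 60 bases of that probe (A_33_P3332997), which the files assign to an Ensembl transcript of FOXA1. They match the RefSeq promoter table exactly, from 66 to 7 bases before the RefSeq start of FOXA1, at chr14:37595256-37595315 on GRCh38.p14. The promoters of NKX2-1 and SFTPA1 are shown for the letters that forkhead, NKX2-1 or GATA factors are known to favor, which are in capitals there. Each run holds the 250 bases before a RefSeq start, on the strand of the gene.
FOXA1, chr14:37595250-37595499, minus strand: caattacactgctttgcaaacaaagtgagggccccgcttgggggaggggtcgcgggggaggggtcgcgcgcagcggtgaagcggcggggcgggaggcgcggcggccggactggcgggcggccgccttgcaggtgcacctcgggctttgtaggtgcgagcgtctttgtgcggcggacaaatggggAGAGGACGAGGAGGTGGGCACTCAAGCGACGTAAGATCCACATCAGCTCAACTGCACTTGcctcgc
NKX2-1, chr14:36520233-36520482, minus strand: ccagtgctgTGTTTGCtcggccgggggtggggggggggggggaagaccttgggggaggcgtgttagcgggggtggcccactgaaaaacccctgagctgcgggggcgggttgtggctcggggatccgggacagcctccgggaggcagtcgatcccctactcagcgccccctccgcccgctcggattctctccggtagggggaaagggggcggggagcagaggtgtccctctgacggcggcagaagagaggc
SFTPA1, chr10:79610689-79610938, plus strand: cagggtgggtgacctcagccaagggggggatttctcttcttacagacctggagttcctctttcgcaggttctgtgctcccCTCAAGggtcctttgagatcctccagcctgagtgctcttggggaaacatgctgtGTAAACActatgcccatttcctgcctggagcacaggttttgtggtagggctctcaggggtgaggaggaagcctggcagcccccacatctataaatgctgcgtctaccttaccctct

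RefSeq promoters were given for 7 of the 10 genes, in 10 windows. The forkhead letters TGTTTAC were searched on both strands, as were their variants TGTTTGC and, likewise, TGTTTGT, with CTCAAG for NKX2-1 and the letters AGATAA for GATA factors. No match overlapped another in these windows. These spellings were chosen with the windows already known. A forkhead spelling was found in 6 of the 10 windows (both of NKX2-1 and 1 each of FOXA1, GATA6, SFTPA1 and SFTPB), against 10.1% of all 35116 promoter windows. CTCAAG was found in 3 windows (FOXA1, NAPSA and SFTPA1), against 10.4% of all windows, and AGATAA in 1, the second window of NKX2-1, against 9.17%. In SFTPA1, CTCAAG began 170 bases and the forkhead letters 116 bases before the start. No factor's binding was measured, and the matches are letters only.

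The probes of SFTPA1, SFTPD, NAPSA and SCGB1A1 are given next, in lower case throughout, since their levels are described below. The files place them on hg19. The first NAPSA probe covers 290 bases of the genome with its 60 bases and the SCGB1A1 probe 710, so that both cross a splice junction and read spliced RNA. SFTPA1 has a nearly identical neighbor, SFTPA2, and the SFTPA1 probe may pair with RNA of both.
SFTPA1, A_24_P223874, chr10:81373801-81373860, plus strand: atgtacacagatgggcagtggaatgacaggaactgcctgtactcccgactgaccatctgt
SFTPD, A_32_P107617, chr10:81697733-81697792, minus strand: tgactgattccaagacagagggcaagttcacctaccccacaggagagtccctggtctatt
NAPSA, A_23_P90130, chr19:50862000-50862289, minus strand: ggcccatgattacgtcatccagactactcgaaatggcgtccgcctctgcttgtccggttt
NAPSA, A_32_P107029, chr19:50864208-50864267, minus strand: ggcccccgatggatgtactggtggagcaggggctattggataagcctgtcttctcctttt
SCGB1A1, A_23_P150583, chr11:62189823-62190532, plus strand: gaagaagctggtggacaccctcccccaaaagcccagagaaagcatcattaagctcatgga

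The miRNA supplied by premiR-197 and blocked by LNA-miR-197 has 2 mature arms in RefSeq, shown with the seed (bases 2 to 8) in capitals. The labels do not say which arm the reagents carry or bind.
hsa-miR-197-3p: uUCACCACcuucuccacccagc
hsa-miR-197-5p: cGGGUAGAgagggcagugggagg

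Levels are given as log2 of the scanner's processed signal minus log2 of the 75th percentile of that array, so that 0 is the brightness of the 75th percentile and each unit is a doubling of signal. A level belongs to its probe, and levels of different probes were not read as relative amounts of RNA. They were only ranked to choose the probe tested for a gene, averaged in an alternative setting and summed for the epithelial markers. A probe counts as above background where the scanner software marked it well above background. The lowest level so marked lay between -6.56 and -5.69 on the 12 arrays, the 75th percentile was between 613 and 719 signal units, and 55.8% to 63.0% of all probes were above background. The number of arrays limits the precision of the differences. Of the 13 probes, 6 were above background on all 12 arrays, those of FOXA1 (A_23_P37127), FOXA2, GATA6, SFTPC, NAPSA (A_23_P90130) and SCGB1A1. Another 4 were above it on at least 3 arrays, those of NKX2-1 and SFTPD and the second probes of FOXA1 and NAPSA. The remaining 3, for SFTPA1 and SFTPB, were above it on fewer than 3 arrays, so 8 of the 10 genes passed the filter and were tested.

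**Figure D1:**
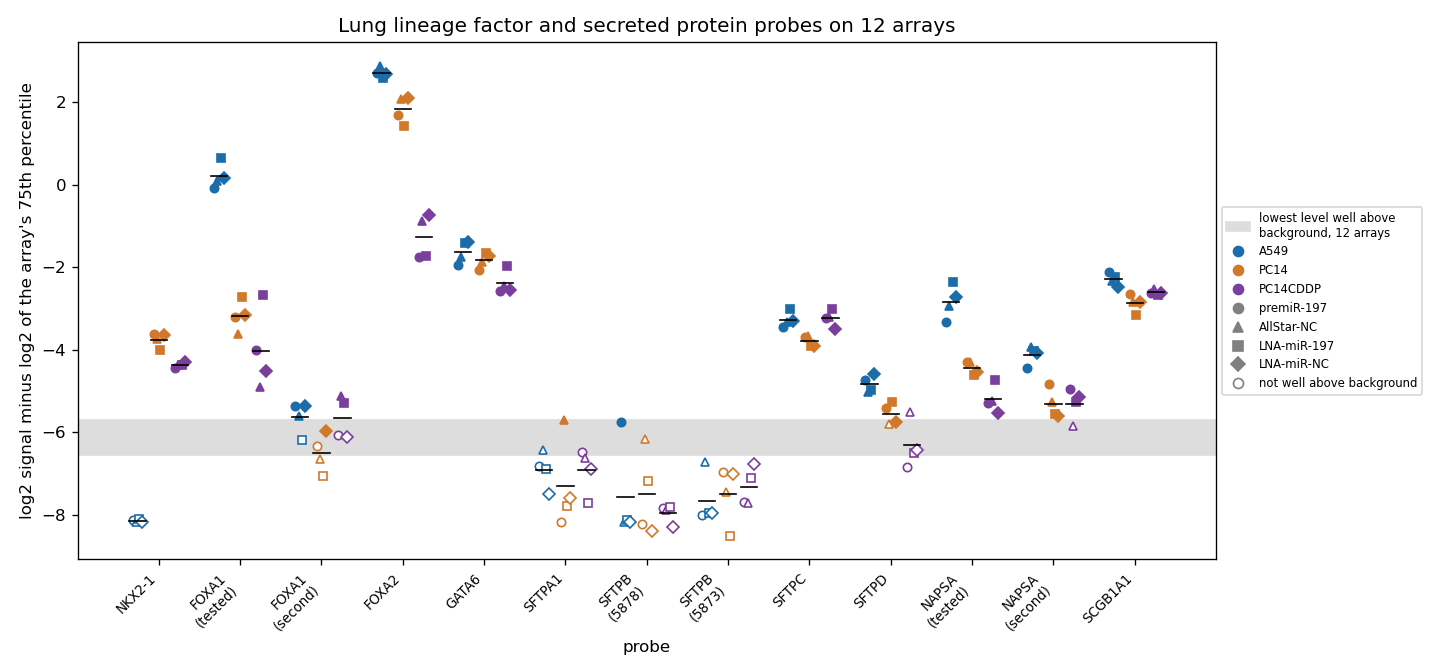
Levels of the 13 probes on the 12 arrays, as log2 signal minus log2 of the array's 75th percentile, with color for the line, symbol for the transfection, bars for the mean of a line's 4 arrays, and open symbols where the probe was not well above background. NKX2-1 is open in A549 alone, FOXA2 of PC14CDDP lies below the other lines on every array, and the SFTPA1 and SFTPB points lie in or under the gray band of the lowest levels above background.

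NKX2-1 RNA was detected in PC14 and PC14CDDP and was not above background in A549. Its probe, at chr14:36985718-36985777 (hg19, minus strand), was at -8.14, -8.17, -8.11 and -8.18 in A549 after premiR-197, AllStar-NC, LNA-miR-197 and LNA-miR-NC, and the signal there was 2.24 to 2.54 units on all 4 arrays. In PC14 it was at -3.63, -3.75, -4.02 and -3.64, with 44.4 to 56.9 units. In PC14CDDP it was at -4.44, -4.38, -4.38 and -4.30, with 29.6 to 34.0 units. The 3 lines did not overlap, and both PC14 lines were above background on 4 of 4 arrays. PC14 was at least 5.18-fold brighter than A549 (limma adjusted p = 9.55e-09) and PC14CDDP at least 3.38-fold brighter (adjusted p = 1.73e-08). These bounds set the mean of the brighter line against the mean, over the dim arrays, of the lowest level above background or the dim probe's own level, whichever was higher. The bounds are for the processed signal. An adjusted p given beside a bound, here and below, is of limma's fitted difference between the lines and does not test the bound. With normexp background correction, which adds an offset, the log2 differences were smaller than these bounds, at -0.96 for A549 against PC14 (adjusted p = 2.54e-07) and 0.74 for PC14CDDP against A549 (adjusted p = 1.41e-06). PC14CDDP was below PC14 by a log2 difference of -0.62 ± 0.10 (SE, n = 4 arrays a line, adjusted p = 0.000952).

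FOXA2 RNA was brightest in A549, somewhat lower in PC14 and far lower in the cisplatin-resistant PC14CDDP. The probe at chr20:22562164-22562223 (hg19, minus strand) was at 2.72, 2.89, 2.59 and 2.69 in A549, in the order premiR-197, AllStar-NC, LNA-miR-197 and LNA-miR-NC. It was at 1.69, 2.08, 1.44 and 2.10 in PC14, and at -1.74, -0.87, -1.72 and -0.73 in PC14CDDP. No array of one line overlapped those of another. PC14CDDP was lower than PC14 by a log2 difference of -3.09 ± 0.16 (SE, adjusted p = 3.73e-06), which is an 8.53-fold lower signal. It was lower than A549 by -3.99 ± 0.16 (adjusted p = 2.26e-07), and A549 was above PC14 by 0.89 ± 0.16 (adjusted p = 0.00142). The SD between the 4 arrays of a line was 0.12 for A549, 0.32 for PC14 and 0.54 for PC14CDDP.

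FOXA1 followed the same order of lines. Its tested probe, at chr14:38059546-38059605 (hg19, minus strand), was printed in 10 spots on each array, and the SD between the spots was 0.046 to 0.241. In the same order of transfections it was at -0.09, 0.09, 0.66 and 0.16 in A549, at -3.21, -3.62, -2.73 and -3.16 in PC14, and at -4.01, -4.91, -2.66 and -4.53 in PC14CDDP. A549 lay above all arrays of both other lines, and those of PC14 and PC14CDDP overlapped. A549 exceeded PC14 by 3.39 ± 0.26 (SE, adjusted p = 9.46e-06), a 10.5-fold difference, and PC14CDDP was below A549 by -4.23 ± 0.26 (adjusted p = 2.15e-06). PC14CDDP was also called lower than PC14, by -0.85 ± 0.26 (adjusted p = 0.0281). That call was lost without the premiR-197 arrays (-0.86, adjusted p = 0.0927), without the AllStar-NC arrays (-0.70, 0.101) and without the LNA-miR-NC arrays (-0.68, 0.141), and with the mean of both FOXA1 probes the difference was -0.0022 (adjusted p = 0.995).

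The promoter probe of FOXA1, the capitals shown above, lay near background. It was above background on 3 A549 arrays, 1 PC14 array and 2 PC14CDDP arrays, with means of -5.63 ± 0.39, -6.50 ± 0.47 and -5.66 ± 0.51 (SD, n = 4). Its differences had another order from those of the tested probe. A549 was above PC14 by 0.87 ± 0.32 (SE, adjusted p = 0.0408), PC14CDDP was 0.84 ± 0.32 above PC14 (adjusted p = 0.0600), and PC14CDDP and A549 differed by -0.03 (95% confidence interval -0.77 to 0.72).

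GATA6 was above background on all 12 arrays, and its line means lay within 0.77 of each other. The probe at chr18:19781793-19781852 (hg19, plus strand) spanned -1.94 to -1.39 over the A549 arrays, -2.08 to -1.66 over the PC14 arrays and -2.57 to -1.97 over the PC14CDDP arrays. PC14CDDP was lower than PC14 by -0.56 ± 0.11 (SE, adjusted p = 0.00351; 0.0509 by the methods' t-test) and lower than A549 by -0.77 ± 0.11 (adjusted p = 0.000321), although its LNA-miR-197 array, at -1.97, overlapped PC14. A549 was above PC14 by 0.21, with a 95% confidence interval from -0.05 to 0.47 (adjusted p = 0.126), so these neighbors in the order did not differ beyond their spread.

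SFTPA1 and SFTPB, which encode surfactant proteins A1 and B, were at or near background. The SFTPA1 probe was above background on 0 of 4 A549 arrays, on 1 of 4 PC14 arrays (AllStar-NC, 12.4 signal units) and on 0 of 4 PC14CDDP arrays. Its signals were otherwise between 2.44 and 7.92 units. The first SFTPB probe (A_33_P3275878, chr2:85885985-85886044, hg19, minus strand) was above background on 1 array, A549 with premiR-197 at 11.9 units. The second (A_33_P3275873, chr2:85885413-85885472) was above it on 0 of 12 arrays, with 1.96 to 6.13 units, and was at 2.49 units on the array where the first was detected. No array was above background at both SFTPB probes, and neither RNA was above it on more than 1 array of any line.

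SFTPC and SFTPD were dim and differed in detection. The SFTPC probe was above background on all 12 arrays, with 46.9 to 86.9 signal units. Its levels were -3.46, -3.33, -3.02 and -3.29 in A549, -3.68, -3.66, -3.90 and -3.91 in PC14, and -3.23, -3.22, -3.02 and -3.49 in PC14CDDP. All PC14 arrays lay below those of both other lines. SFTPC was thus higher in A549 than in PC14 by 0.51 ± 0.12 (SE, adjusted p = 0.00523) and higher in PC14CDDP than in PC14 by 0.55 ± 0.12 (adjusted p = 0.00585), and it was the only gene of the 8 tested that was called higher in PC14CDDP than in PC14 (SCGB1A1 was too with normexp background correction, at 0.19, adjusted p = 0.0399, and with the filter on all 12 arrays, at 0.26, adjusted p = 0.0492). With normexp the SFTPC difference between A549 and PC14 shrank to 0.12 (adjusted p = 0.109). PC14CDDP and A549 differed by 0.03 (95% confidence interval -0.24 to 0.31), and by 0.29 with quantile normalization (adjusted p = 0.0474).

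The SFTPD probe was above background on 4 of 4 arrays in A549, 3 of 4 in PC14 and 0 of 4 in PC14CDDP. Its A549 arrays spanned -5.03 to -4.59, its PC14 arrays -5.80 to -5.27 and its PC14CDDP arrays -6.84 to -5.52. A549 was at least 1.94-fold brighter than PC14CDDP (adjusted p = 0.00151). This bound is for the processed signal. Over 13 alternative settings the log2 difference of PC14CDDP against A549 ranged from -1.81 to -0.22, and the smallest lies under the bound. A549 exceeded PC14 by 0.72 ± 0.28 (SE, adjusted p = 0.0486), a call that was lost without the premiR-197 arrays (0.74, adjusted p = 0.0859), the LNA-miR-197 arrays (0.86, 0.0715) or the LNA-miR-NC arrays (0.57, 0.201), and with quantile normalization (0.47, 0.163). PC14 was not called different from PC14CDDP (adjusted p = 0.0523), but was without the AllStar-NC arrays (-1.11, adjusted p = 0.00652) and without the transfection block (adjusted p = 0.0305).

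NAPSA RNA was highest in A549. The tested probe was at -3.32, -2.95, -2.36 and -2.71 in A549 after premiR-197, AllStar-NC, LNA-miR-197 and LNA-miR-NC, at -4.30, -4.30, -4.62 and -4.54 in PC14, and at -5.29, -5.25, -4.75 and -5.53 in PC14CDDP. The lines did not overlap. A549 exceeded PC14 by 1.61 ± 0.21 (SE, adjusted p = 0.000174), a 3.04-fold difference, and PC14CDDP was below A549 by -2.37 ± 0.21 (adjusted p = 1.49e-05). The second probe gave the same direction for A549, 1.19 ± 0.24 above PC14 (adjusted p = 0.00210) and above PC14CDDP by a similar amount (-1.18 for PC14CDDP against A549, adjusted p = 0.00202). The probes disagreed on the PC14 lines. PC14CDDP was below PC14 by -0.76 ± 0.21 at the tested probe (adjusted p = 0.0153) and differed by 0.0095 at the second (95% confidence interval -0.53 to 0.55). The call at the tested probe was lost without the AllStar-NC arrays (-0.70, adjusted p = 0.0836) and without the LNA-miR-NC arrays (-0.69, 0.0692), and with normexp background correction (-0.23, 0.0737).

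SCGB1A1 RNA was measured on all 12 arrays at 80.8 to 149 signal units and differed little between lines. The A549 arrays spanned -2.47 to -2.12, the PC14 arrays -3.15 to -2.65 and the PC14CDDP arrays -2.67 to -2.53. A549 was above PC14 by 0.58 ± 0.10 (SE, adjusted p = 0.00127) and did not overlap it. PC14CDDP was below A549 by -0.32 ± 0.10 (adjusted p = 0.0241), which was lost without the premiR-197 arrays (-0.26, adjusted p = 0.105) and without the AllStar-NC arrays (-0.36, 0.0655), and with quantile normalization (-0.14, 0.268) or normexp (-0.13, 0.109). PC14CDDP and PC14 differed by 0.26 (95% confidence interval 0.02 to 0.50, adjusted p = 0.0712).

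Counted over the 10 genes, of which 8 were tested, A549 was called higher than PC14 for 6 and lower for 1, while 35.8% of all 24859 genes tested were higher and 32.4% lower. PC14CDDP was called higher than PC14 for 1 and lower for 5, against 25.1% and 23.3% of all genes. PC14CDDP was called higher than A549 for 1 and lower for 6, against 34% and 36.4% of all genes. Calls between lines were thus common across the array. NKX2-1 and SFTPD passed the filter only through lines where they were brighter, and the comparisons share lines with each other. The plot of line differences shows the fitted values with their intervals.

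**Figure D2:**
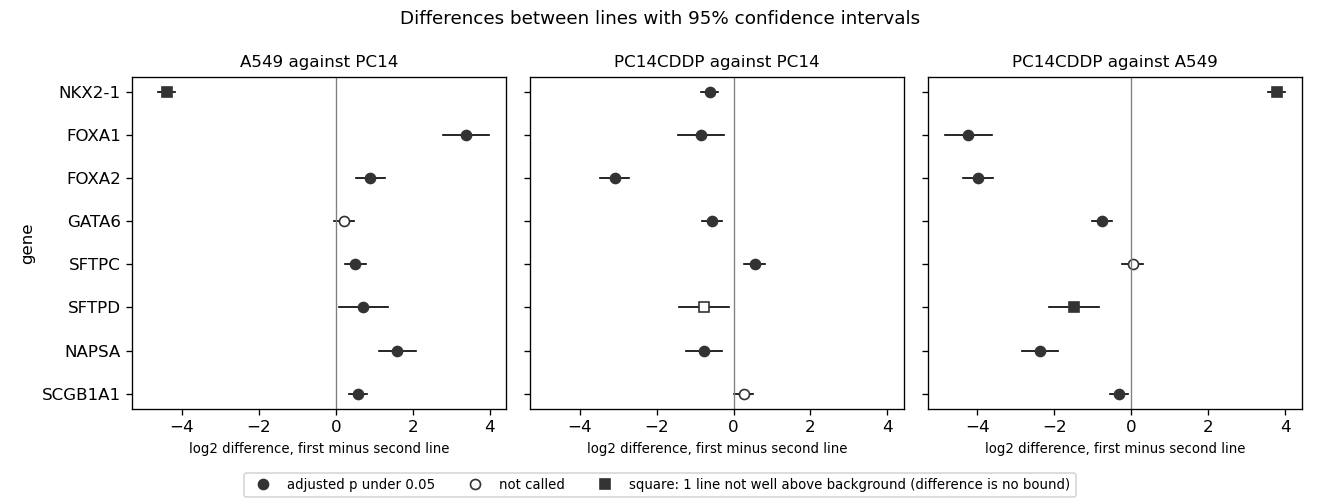
Log2 differences between lines for the 8 tested genes (first minus second line), with 95% confidence intervals from limma over 4 arrays a line, filled symbols for adjusted p under 0.05, and squares where the probe of one line never exceeded background, so that the fitted difference is not a bound. FOXA2 stands lowest in the middle panel at -3.09, and NKX2-1 lies opposite to FOXA1 and FOXA2 in the outer panels.

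The lines were checked against markers of the cell types. KRT8 and KRT18 were above background on all 12 arrays, while EPCAM was above it on 4, 3 and 0 arrays and CDH1 on 4, 2 and 0 arrays of A549, PC14 and PC14CDDP. All 5 epithelial markers were called higher in A549 than in PC14 (35.8% of all genes). CDH1, EPCAM and KRT19 were called lower in PC14CDDP than in PC14 (23.3% of all genes). EPCAM and CDH1 were near background there, and PC14 was at least 1.49-fold and 1.16-fold brighter than PC14CDDP. Both passed the filter only through lines where they were brighter. The summed signal of the 5 was 298 to 412 times the 75th percentile in A549, 154 to 224 times in PC14 and 159 to 228 times in PC14CDDP. This sum mostly reflects the KRT18 probe, with mean levels of 8.28, 7.41 and 7.60 in these lines. The next brightest, KRT8, had 4.92, 3.43 and 3.23, so the sum says little of CDH1, EPCAM and KRT19. KRT8 and KRT18 were not called between PC14CDDP and PC14 (-0.20, adjusted p = 0.382, and 0.19, adjusted p = 0.334). All 5 markers thus moved with FOXA1 and FOXA2 between A549 and PC14, and 3 of 5 between PC14CDDP and PC14, with EPCAM and CDH1 near background. The part of these markers in those differences was not tested. In such bulk RNA, fewer cells that carry a transcript and less of it per cell cannot be told apart. Of 8 alveolar type II markers, 6, 5 and 3 were above background on all arrays of A549, PC14 and PC14CDDP, each by the probe with its highest mean. Each count includes SFTPA2, whose other probe was above background on no array. SFTPA1 and SFTPB were not above it on all arrays of any line, and in PC14CDDP SFTPD and LAMP3 were above it on none. Of the 5 fibroblast markers 1, COL1A1, was above background on all arrays of each line, as were the blood cell genes CD14 and PTPRC. Of the 4 basal markers, the keratin KRT5 was above it on none of the 12 arrays and KRT14 on 1 A549 array only. NGFR was above it on 2, 4 and 4 arrays and TP63 on 1, 3 and 1 arrays of A549, PC14 and PC14CDDP.

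Of 14 other genes of the alveolar type II program, 12 were tested, with SFTPA2 by a probe whose level is uncertain (described at the end). Between A549 and PC14, 5 were called higher and 3 lower, where 35.8% and 32.4% of all genes were (median log2 difference 0.31, against 0.08 over all genes tested). Between PC14CDDP and PC14, 2 were higher and 4 lower, against 25.1% and 23.3% (median -0.14, against 0.04). Between PC14CDDP and A549, 3 were higher and 8 lower, against 34% and 36.4% (median -0.72, against -0.05). ABCA3, the lipid pump of lamellar bodies, was at 0.33 in A549, -0.00037 in PC14 and -4.74 in PC14CDDP on average, and PC14CDDP was lower than A549 by -5.08 ± 0.25 (SE, adjusted p = 5.65e-07). LAMP3, a lamellar body membrane protein, was above background on all arrays of A549 and PC14 and none of PC14CDDP, and PC14 was at least 25.3-fold brighter than PC14CDDP (adjusted p = 3.04e-06). CTSH, a lysosomal protease that also acts on the surfactant protein B precursor, was lower in PC14CDDP than in A549 by -7.20 ± 0.30 (adjusted p = 2.54e-07). SLPI, a secreted protease inhibitor, was above background in A549 alone, at least 22.0-fold brighter than in PC14 (adjusted p = 7.32e-07). LAMP3 and SLPI passed the filter only through the lines where they were brighter.

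Of 18 other endoderm and gut lineage factors, 16 were tested. A549 was called higher than PC14 for 8 and lower for 7, against 35.8% and 32.4% of all genes (median 0.48, against 0.08). PC14CDDP was called higher than PC14 for 2 and lower for 5, against 25.1% and 23.3% (median -0.15, against 0.04), and higher than A549 for 4 and lower for 8, against 34% and 36.4% (median -0.35, against -0.05). SOX2, a factor of the foregut and of the airways, was higher in A549 than in PC14 by 4.47 ± 0.22 (adjusted p = 6.50e-07) and also higher in PC14CDDP than in PC14 by 3.13 ± 0.22 (adjusted p = 1.40e-05). CDX2, a homeobox factor of the intestine, was lower in A549 than in PC14 by -3.07 ± 0.20 (adjusted p = 3.28e-06).

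Of 8 other airway secretory genes, 6 were tested, with FOXA3 also on the previous list. A549 was called higher than PC14 for 4 and lower for 1, against 35.8% and 32.4% of all genes (median 0.80, against 0.08). PC14CDDP was called higher than PC14 for 1 and lower for 2, against 25.1% and 23.3% (median 0.18, against 0.04), and higher than A549 for 0 and lower for 4, against 34% and 36.4% (median -0.42, against -0.05). MUC5B, a gel-forming mucin, was above background on 3 A549 arrays and on none of the other lines, at least 2.80-fold brighter in A549 than in PC14 (adjusted p = 0.00270), and it passed the filter only through A549. SPDEF, a factor of goblet cells, was lower in PC14CDDP than in A549 by -1.62 ± 0.14 (SE, adjusted p = 1.49e-05). The secretoglobins SCGB3A2 and SCGB3A1 were higher in A549 than in PC14 by 0.95 ± 0.10 (adjusted p = 5.21e-05) and by 0.64 ± 0.20 (adjusted p = 0.0186), the direction of SCGB1A1.

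The second question was whether supplying or blocking miR-197 changed the lineage and surfactant RNAs. No gene of the 10 was called after either treatment. After premiR-197 against AllStar-NC, 0 of 8 tested genes were called by limma, with log2 differences from -0.47 to 0.38, and 1 had an unadjusted p under 0.05. Over all genes 0.217% were called. After LNA-miR-197 against LNA-miR-NC, 0 of 8 were called, with differences from -0.58 to 0.93, and 2 had an unadjusted p under 0.05, while 7.74% of all genes were called. Between the controls, LNA-miR-NC against AllStar-NC, 0 of 8 were called and 0 had an unadjusted p under 0.05, against 0.611% of all genes. The methods' t-test, adjusted by Benjamini-Hochberg, also called 0 of 8 in each of the 3 comparisons. A missed threshold does not show that the RNAs were equal. The intervals below give what 3 lines allow, although they treat the related PC14 and PC14CDDP as independent.

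**Figure D3:**
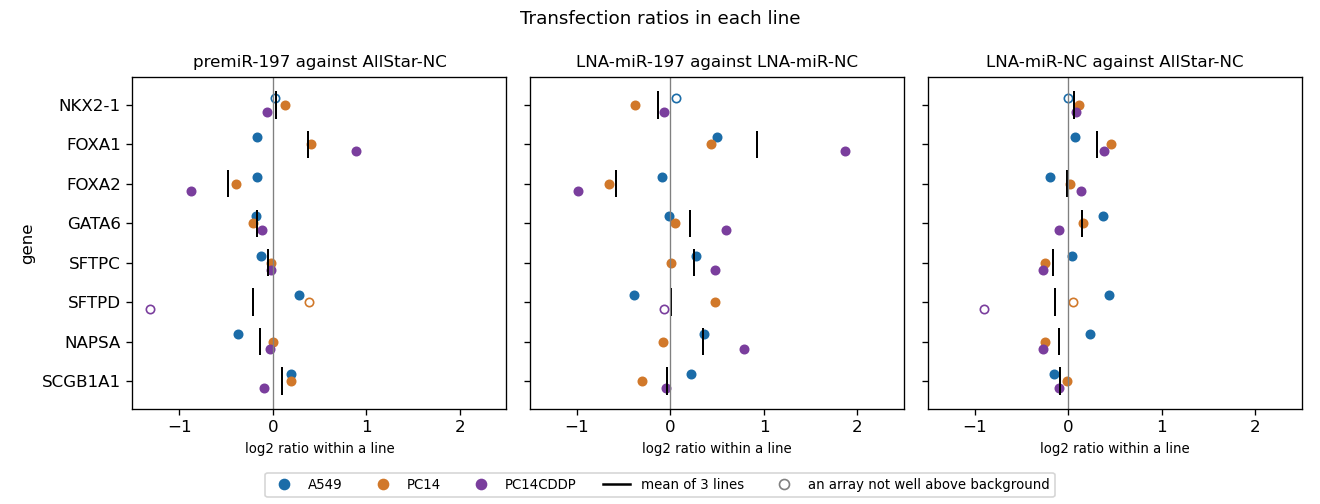
Log2 ratios of treated over control within each line for the 8 tested genes, with 1 point a line, a vertical bar for the mean of the 3 lines, and open points where an array of the pair was not well above background. The FOXA2 points lie left of 0 in all lines after premiR-197 and after LNA-miR-197, and the PC14CDDP point of FOXA1 stands farthest right, at 1.86 after LNA-miR-197.

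FOXA2 was lower with miR-197 supplied and with miR-197 blocked, in all 3 lines. The log2 ratio after premiR-197 was -0.16 for A549, -0.39 for PC14 and -0.87 for PC14CDDP, with a mean of -0.47 (95% confidence interval -0.91 to -0.04, adjusted p = 0.272). After LNA-miR-197 it was -0.10, -0.66 and -0.99, with a mean of -0.58 (95% confidence interval -1.02 to -0.15, adjusted p = 0.0953). Neither passed the threshold over all genes. Without PC14CDDP the means were -0.28 (adjusted p = 0.629) and -0.38 (adjusted p = 0.380). Between the control oligonucleotides FOXA2 differed by -0.20, 0.02 and 0.14.

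FOXA1 was brightest on the LNA-miR-197 array in each line. Its ratio to LNA-miR-NC reached 0.50 for A549, 0.43 for PC14 and 1.86 for PC14CDDP, with a mean of 0.93 (95% confidence interval 0.23 to 1.63, adjusted p = 0.0972). PC14CDDP set the size of that mean, which was 0.46 without it (adjusted p = 0.305). After premiR-197 the ratios were -0.17, 0.41 and 0.89 (mean 0.38, adjusted p = 0.596). The promoter probe of FOXA1 gave -0.83, -1.09 and 0.81 after LNA-miR-197, with 3 of these 6 arrays above background, and so was not above 0 in all lines.

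The other genes had smaller mean ratios, none of which passed the test. The GATA6 ratios were -0.18, -0.21 and -0.11 after premiR-197 in A549, PC14 and PC14CDDP, and -0.02, 0.05 and 0.59 after LNA-miR-197. Those of SFTPC were -0.12, -0.02 and -0.02 after premiR-197, and 0.27, 0.01 and 0.47 after LNA-miR-197. NAPSA gave -0.37, 0.0022 and -0.03 after premiR-197, and 0.36, -0.08 and 0.78 after LNA-miR-197. On the LNA-miR-197 arrays, GATA6, SFTPC and NAPSA of PC14CDDP thus shared the direction of FOXA1, from 1 array each, while the second NAPSA probe gave -0.13 there. NKX2-1, measured above background in the PC14 lines only, had ratios of 0.13 and -0.06 after premiR-197 and of -0.38 and -0.07 after LNA-miR-197. SCGB1A1 had ratios of -0.09 to 0.20 after premiR-197 and of -0.30 to 0.22 after LNA-miR-197. SFTPD gave 0.29 in A549 after premiR-197. After LNA-miR-197 it gave -0.39 in A549 and 0.48 in PC14, and its PC14CDDP arrays were not above background.

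The wider lists gave few calls after transfection. Over the other alveolar type II genes, 2 of 12 tested were lower after LNA-miR-197, namely LPCAT1 (-1.33 ± 0.20, SE, adjusted p = 0.0206) and LPCAT3 (-0.70 ± 0.16, adjusted p = 0.0409), both enzymes that remodel phospholipids. Over the endoderm factors, 3 of 16 were called lower, of which ONECUT1 (-0.96 ± 0.21, adjusted p = 0.0367) and ONECUT2 (-0.83 ± 0.19, adjusted p = 0.0412) were above background on all 12 arrays. The third, HNF4G, was above background in A549 only, so no fitted value is given. Over all genes 7.74% were called in either direction. These genes were named after their values were seen. No airway secretory gene was called in any transfection comparison (0 of 6), and 0 had an unadjusted p under 0.05. After premiR-197 no gene of the 3 lists was called by limma, and 1 type II gene and 1 endoderm factor had an unadjusted p under 0.05. LPCAT3, ONECUT1 and ONECUT2 were also lower after premiR-197, by -0.33, -0.29 and -0.72, while LPCAT1 differed by 0.22. Between the controls none was called either, with 4 endoderm factors at an unadjusted p under 0.05. The methods' t-test called 0 genes of these lists after adjustment.

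The genes whose levels tracked each member most closely were found by Pearson correlation over the 12 arrays among 18444 genes above background on all of them. As the 12 arrays fall into 3 lines, such a correlation mostly sets lines against each other, and it is a description only. FOXA1 was followed most closely by IRF5 (r = 0.993), FTL (0.990) and the unnamed probe A_33_P3420013 (0.989). FOXA2 was followed by ITFG3 (0.994), DDIT4 (0.992) and KIF3C (0.991), and GATA6 by ARHGAP42 (0.967), VPS37D (0.966) and CECR5-AS1 (0.956). SFTPC was nearest to MID2 (0.944), ZNF658 (0.936) and MAN2A1 (0.920), NAPSA to NOL3 (0.987), GDF15 (0.986) and RAB37 (0.984), and SCGB1A1 to XLOC_l2_001683 (0.963), ACTN3 (0.962) and MMP28 (0.956). None of these neighbors was another gene of the 10.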

How the data were processed

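The authors hybridized RNA of 12 transfected cultures to 1-color Agilent 60-mer arrays and read them with Agilent Feature Extraction (10.7.3.1, per the labels). They deposited, per spot, an intensity called the processed signal (background removed, spatial trend removed, no scaling between arrays), with flags, and a table of the same values. No normalization is given in the sources used here. Samples were grouped by their labels, and 0 columns belonged to other samples.

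Control and outlier spots were left out, spots of a probe were averaged, and the log2 intensity minus that of the array's 75th percentile was used. Probes with a missing value (106) were dropped, 33712 probes above background on at least 3 arrays were kept, and the brightest probe stood for each file gene name (24859 genes). limma 3.58.1 (R 4.3.3) fitted transfection and line on all 12 arrays, with eBayes and Benjamini-Hochberg adjustment over all genes tested (adjusted p under 0.05). The cell line pairs the arrays, as each line gave 1 array for every transfection, and deviations from transfection means correlated between arrays of a line with r of 0.848 to 0.949. These deviations keep the differences between lines, so the correlation cannot show that cultures were paired in any other way. The fit was tested on simulated data. All 10 genes were described, and at most 4 called genes with the largest line difference were named per wider list. Some genes of these lists are counted but not reported here. The genes and lists were chosen with earlier results of these data known. Alternatives were quantile normalization, normexp (offset 50), the deposited table, no filter, a filter on all 12 arrays, mean or separate probes, only the arrays compared, each line or transfection left out, no block, slide as a block, and the methods' t-test. Sequences are RefSeq's (GRCh38.p14) or the files' probes (hg19). Python 3.11.15, numpy, pandas and matplotlib served for tables and plots.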

Additional observations from a re-analysis of the deposited data

How the results depend on the processing

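Over the 8 tested genes and 6 comparisons, 660 values were recomputed, of which 616 kept direction and side of the threshold, 24 lost a call, 7 gained one and 13 changed sign, 0 of them for a called difference. The number of genes called between A549 and PC14 was 7, and 6 to 7 with a transfection left out. It was 6 between PC14CDDP and PC14 (4 to 6) and 7 between PC14CDDP and A549 (6 to 7). No gene was called after transfection under the other settings (0 of 8), except that normexp background correction called 2 after LNA-miR-197, FOXA1 (0.57, adjusted p = 0.0180) and FOXA2 (-0.53, adjusted p = 0.0243); the cause was not tested. Without the cell line block 0 genes were called in the 3 transfection comparisons, and without the transfection block 7, 6 and 7 between lines, where FOXA1 of PC14CDDP against PC14 was lost (adjusted p = 0.125) and SFTPD gained (0.0305).

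All sign changes were of differences that were not called. With a line left out, after premiR-197, NKX2-1 ranged from -0.0147 (without PC14) to 0.0770 and SFTPD from -0.51 to 0.34 (without PC14CDDP); after LNA-miR-197, SFTPD ranged from -0.23 (without PC14) to 0.20 and SCGB1A1 from -0.17 to 0.0878 (without PC14); between the controls, FOXA2 ranged from -0.0917 to 0.0781 (without A549) and SFTPD from -0.43 to 0.24 (without PC14CDDP). SFTPC of PC14CDDP against A549 ranged from -0.0285 (without the premiR-197 arrays) to 0.11. After premiR-197, SFTPC turned to 0.0054 with normexp and NAPSA to 0.0711 with the mean of its probes. SCGB1A1 after LNA-miR-197 turned to 0.0089 with quantile normalization and 0.0305 with normexp, and between the controls normexp turned FOXA2 to 0.0013 and NAPSA to 0.0287. Normexp also shrank dim differences, with SFTPC at 0.12 (adjusted p = 0.109) between A549 and PC14. Probes near background, those of SFTPA1, SFTPB, SFTPD and the promoter of FOXA1, limit what can be said of these RNAs.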

Other observations

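HOPX, a marker of alveolar type I cells chosen after its values were seen, gave opposite pictures at its 2 probes. At A_23_P254507 (hg19, chr4:57514443-57514502) it was above background on 0 of 4 A549 arrays and on 4 of 4 arrays of each PC14 line, at least 17.9-fold brighter in PC14 (limma adjusted p = 2.49e-08) and at least 119-fold brighter in PC14CDDP (adjusted p = 4.05e-09). With this probe HOPX passed the filter only through the PC14 lines, where it was brighter. At A_33_P3350673 (chr4:57516850-57516909) it was above background on all 12 arrays, with means of -3.10, -3.55 and -3.32 for A549, PC14 and PC14CDDP. Of the other type I markers, AGER, AQP5, CAV1 and RTKN2 were above background on all 12 arrays and PDPN on none.

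The 2 SFTPA2 probes also disagreed, although they share 51 of 60 bases by their hg19 positions (chr10:81315623-81315682 and chr10:81315614-81315673). The first was above background on all 12 arrays and the second on 0 of 12. The first gave A549 above PC14 by 1.29 ± 0.13 (SE, adjusted p = 3.96e-05), and this SFTPA2 value is uncertain. The cause was not tested.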
